A study of Epimedium pubescens with 12 samples.

Results

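Phosphate transporter PHT1-4 is the gene Ebr02G025260 of Epimedium pubescens, a medicinal herb of the barberry family, and its mRNA was measured in leaves kept with or without phosphorus. It was chosen by its identifier and is 1 of the 53813 genes in the tables. RNA-seq was available for 12 leaf libraries in 4 groups of 3 biological replicates, lettered A, B and C. The groups were 30d -P and 30d +P, sampled after 30 d, and 90d -P and 90d +P, sampled after 90 d. The -P plants were watered with nutrient solution holding 0 mmol/L Pi and the +P plants with solution holding 1 mmol/L Pi. All were 1-year-old seedlings of 1 species, collected from cultivation bases, grown in sand and perlite in the same chamber after a shared period of acclimation, and each replication of a treatment held 12 seedlings. The sources used here do not say how many seedlings went into a library. The solutions also differed in their potassium, sodium, nitrate and sulfate salts, so the lack of Pi and these salts cannot be told apart, and plant age cannot be told apart from the length of treatment between 30 d and 90 d.

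PHT1 proteins are plasma membrane symporters that carry phosphate into plant cells together with protons. In Arabidopsis, PHT1;1 and PHT1;4 carry much of the phosphate taken up by roots, and PHT1;4 is among the genes induced when phosphate runs short, through the MYB factor PHR1 and its SPX partners. PHT1 proteins also reach leaf cells, where phosphate is taken up from the xylem and moved out of older leaves.

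PHT1-4 lies on chromosome 2 at positions 217843112 to 217845493, on the plus strand, with an exonic length of 2014 bases in the authors' annotation over a span of 2382 bases. The build of the genome is not given in the sources used here. Its name is that of the closest Swiss-Prot entry, inorganic phosphate transporter 1-4 of Arabidopsis, which 5 genes of E. pubescens share. No other annotated gene overlaps it. The study designed an RT-qPCR primer pair for it, shown here because the pair marks the ends of the stretch of its transcript that was amplified; whether it also matches other copies was not tested.
PHT1-4 forward primer: ctggatgagtcaagaaggaa
PHT1-4 reverse primer: acaaggctacgatgaagag
The primers are 20 and 19 bases long, and the RT-qPCR values are not analysed here.

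Total counts per library lay between 14756971 and 18153463, of which PHT1-4 took between 1829 and 23104. Counting error on PHT1-4 was therefore 0.658% to 2.34% per library, well under the spread between replicates. The TMM factors of the 12 libraries ran from 0.874 to 1.18. They were highest in replicate B of 90d -P (1.12) and replicate B of 90d +P (1.18). The leaf labels were checked with marker genes: light-harvesting, photosystem and other mesophyll genes summed to between 46505 and 148028 FPKM in every library, while 4 of 6 root markers had no read, the root hair factor RHD6 among them. Most of the root list's sum came from Ebr06G002220, named after the rice expansin EXPA7. Fewer cells of a type and less RNA per cell cannot be told apart in these bulk leaves.

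PHT1-4 was an abundant leaf transcript in all 4 groups and stood highest in the leaves kept without phosphorus for 90 d. Levels are given in FPKM, fragments scaled to the length of the gene and the size of the library. All of the values that follow are in the order of replicates A, B and C unless a replicate is named. In 90d -P leaves it had 174, 685 and 432 FPKM, and in 90d +P leaves 147, 49.0 and 206 FPKM. In 30d -P leaves the values were 120.4, 166 and 157 FPKM, against 162, 135 and 139 FPKM in 30d +P leaves. The high values were thus those of replicates B and C of 90d -P, and replicate A of that group lay within the range of the 90d +P leaves. Both extremes of the series carried the letter B, the highest in 90d -P and the lowest in 90d +P.

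The mean level was 431 ± 256 FPKM in 90d -P and 134 ± 79.3 FPKM in 90d +P (SD, n = 3 each). At 30 d it was 148 ± 23.9 FPKM in -P and 145 ± 14.7 FPKM in +P, so the 90d -P mean stood first and the 90d +P mean last. The lower 3 means lay within 1 SD of each other. The spread itself differed with time: the highest replicate was 3.94 times the lowest in 90d -P and 4.20 times in 90d +P, but no more than 1.38 times in either 30 d group. By its group mean, PHT1-4 ranked 210 among all genes in 90d -P and 858 in 90d +P, and 831 and 845 in the -P and +P leaves of 30 d.

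**Figure D1:**
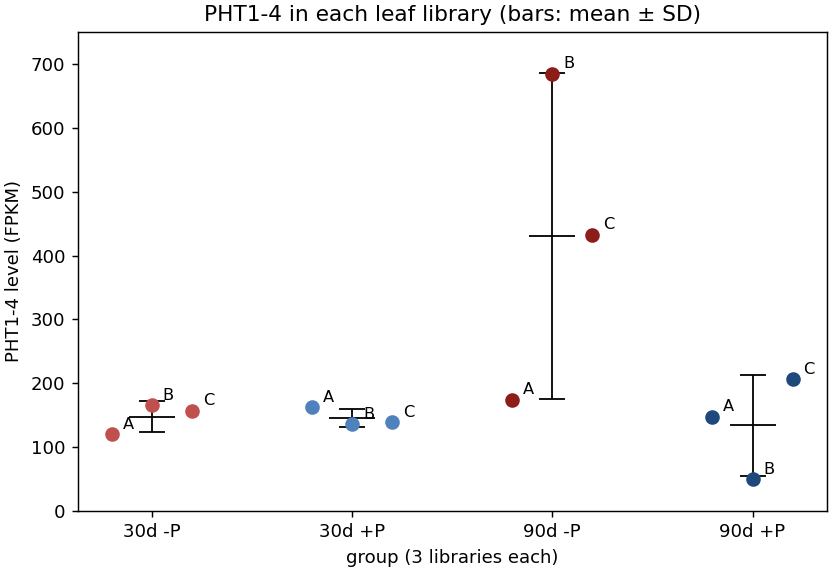
Level of PHT1-4 in FPKM (vertical axis) in each of the 12 leaf libraries, by group, with points lettered by replicate and bars giving the mean ± SD of 3 libraries. The 30 d libraries lie between 120.4 and 166 FPKM, and the 90 d libraries between 49.0 and 685 FPKM.

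The first comparison asked whether PHT1-4 mRNA changed with phosphorus deficiency at 30 d, and it showed no detectable change. The groups overlapped, and the log2 fold change of 30d -P against 30d +P was 0.01 ± 0.53 (SE), with a 95% interval of -1.16 to 1.18. Its adjusted p was 0.999 (edgeR's quasi-likelihood test, Benjamini-Hochberg over 24307 genes). In this comparison edgeR called 0% of the genes tested as higher, where called means an adjusted p of at most 0.05 and at least a doubling or halving. An unadjusted p under 0.05 with at least a doubling was reached by 1.79% of genes, and the groups of 6.82% lay apart in this direction. DESeq2 on all 12 libraries called 101 higher and 179 lower genes. The study's text reports a transporter of this name as up-regulated in these same libraries and does not name the copy. It places that transporter among very large changes between the -P leaves of both times. In 90d -P against 30d -P, Ebr02G025260 had a log2 fold change of 1.55. Ebr01G016550, of the same name, averaged 0.0869 FPKM in 30d -P and 1.71 FPKM in 90d -P. Which copy was meant was not tested. The study reports that RT-qPCR of this transporter matched its RNA-seq. All tests given here use these libraries, so none is independent evidence for PHT1-4.

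At 90 d the fitted level of PHT1-4 was 3.22 times as high in -P as in +P leaves, but the difference did not pass the test. The log2 fold change was 1.69 ± 0.54 (SE), with a 95% interval of 0.48 to 2.89, an unadjusted p of 0.0106 and an adjusted p of 0.825 from edgeR. Of the 9 pairs of a -P and a +P library, 8 had the higher value in -P. An exact two-sided permutation test of the 3 against 3 libraries gave p = 0.2, where the smallest p this design allows is 0.1. edgeR called 0% of genes as higher at 90 d, and 1.61% reached an unadjusted p under 0.05 with at least a doubling. DESeq2 on all 12 libraries called 61 higher and 187 lower genes in this comparison, and gave PHT1-4 an adjusted p of 0.120. The size of the difference depended on replicate B in both groups: without replicate B of 90d -P the log2 fold change was 1.19 (adjusted p = 0.791 from edgeR), and without replicate B of 90d +P it was 1.28 (adjusted p = 0.956 from edgeR).

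Between 30 d and 90 d without phosphorus, all 3 libraries of 90d -P lay above all 3 of 30d -P. In this comparison the groups of 15.3% of all genes tested lay apart in the same direction. The fitted level of PHT1-4 was 2.92 times as high at 90 d, a log2 fold change of 1.55 ± 0.54 (SE) with an adjusted p of 0.109 from edgeR, so it was not called. The unadjusted p of PHT1-4 in edgeR's fit was 0.0163, and 5.98% of all genes had one under 0.05 with at least a doubling. The exact two-sided permutation test gave p = 0.1, the smallest it can give. DESeq2 did call it, with an adjusted p of 0.0312 on all 12 libraries and 0.0194 on the 6 libraries compared. Without replicate B of 90d -P the log2 fold change was 1.05 (adjusted p = 0.317 from edgeR).

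Secondary wall cellulose synthases, the xylem markers used here, were lower at 90 d in the same comparison. The sum of the 13, of which 12 had reads, was 5.31 to 54.1 FPKM in 90d -P and 182 to 375 FPKM in 30d -P. With phosphorus supplied it was lower at 90 d too, at 3.31 to 39.2 FPKM in 90d +P and 162 to 189 FPKM in 30d +P. The root list summed to 0.268 to 3.13 FPKM in 90d -P and 9.48 to 39.6 FPKM in 30d -P, and to 0.261 to 0.936 FPKM in 90d +P and 3.12 to 21.8 FPKM in 30d +P. The mesophyll markers summed to 95756, 52908 and 93435 FPKM in 90d -P and between 89734 and 108382 FPKM in 30d -P. They summed to 87256, 46505 and 79736 FPKM in 90d +P and between 95761 and 148028 FPKM in 30d +P. The xylem and root sums were thus lower at 90 d under both treatments, and the mesophyll sums with phosphorus supplied. Without phosphorus, only replicate B of 90d -P had a mesophyll sum below the 30 d range. Replicate B of 90d -P and replicate B of 90d +P, the extremes of PHT1-4, had the lowest mesophyll sums of the series. They also had the highest TMM factors, 1.12 and 1.18. The part of these sums and factors in the PHT1-4 values was not tested.

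With phosphorus supplied, PHT1-4 did not differ detectably between 90 d and 30 d. The log2 fold change of 90d +P against 30d +P was -0.13 ± 0.53 (SE), with a 95% interval of -1.30 to 1.04 and an adjusted p of 0.920 from edgeR. In this comparison 4.49% of all genes reached an unadjusted p under 0.05 with at least a doubling, and edgeR called 0.843% as higher. The log2 fold change of PHT1-4 turned to 0.28 without replicate B of 90d +P. The difference between the 90 d and 30 d effects of phosphorus, tested as an interaction term, was 1.68 ± 0.75 (SE) on the log2 scale, with an unadjusted p of 0.0488 and an adjusted p of 1.00 from edgeR. An unadjusted p under 0.05 was reached by 2.97% of all genes in that test.

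**Figure D2:**
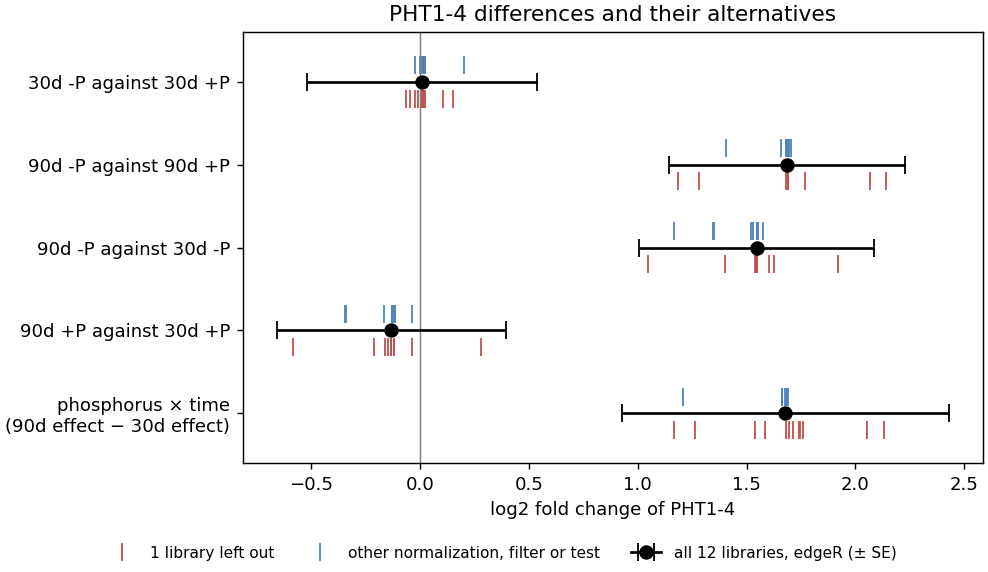
Log2 fold change of PHT1-4 (horizontal axis) in the 4 comparisons and the interaction of phosphorus and time. Black points and bars are edgeR's fit to 12 libraries with its SE, red ticks leave out 1 library each, and blue ticks change the normalization, filter or test. The 90d -P ticks all stay above 0, between 1.05 and 2.14 in the fits that leave out a library, whereas those of 30d -P against 30d +P fall on both sides of 0.

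Within its own family PHT1-4 supplied nearly all of the leaf transcript. Besides it, 13 genes carry the name of a PHT1 transporter, and 3 more that of a low affinity phosphate transporter of the same family from petunia, a name looked up after the values had been seen. PHT1-4 averaged 214 FPKM over the 12 libraries, 159 times the next member. It took 97.8% of the counts of the 17 genes in replicate B of 90d -P (95% exact binomial interval 97.6% to 98.0%, counting error only) and between 99.6% and 100% in each of the other libraries. A total of 9 members had no read in any library, 0 of 190895816 counts, which allows a level of up to 0.0157 CPM. Among them were 6 of the 7 copies named after PHT1-7 that lie side by side on chromosome 2, between positions 526114584 and 526251891. The way reads shared between near-identical copies were counted is not given in the sources used here, so the counts of single members are uncertain.

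The few reads of the other members were concentrated in the same library in which PHT1-4 peaked. Ebr02G025250, named low affinity inorganic phosphate transporter 1, had 2, 372 and 7 counts in 90d -P, and 1, 0 and 6 counts in 90d +P. Replicate B of 90d -P thus held 87.9% of its 423 counts, against 27.3% of those of PHT1-4. Ebr01G016550, which shares the Swiss-Prot name of PHT1-4, had 9, 138 and 18 counts in 90d -P and 9, 5 and 10 counts in 90d +P. Ebr01G016560, next to it in number and of the same name, had 8 counts in replicate B of 90d -P, 3 in replicate B of 90d +P and none elsewhere. Of these copies, 1 besides PHT1-4 had enough reads to be tested, Ebr02G025250, with a log2 fold change of 5.82 ± 2.15 (SE) at 90 d and an adjusted p of 0.842 from edgeR. The other 4 members with reads, Ebr06G027260, Ebr04G018180, Ebr02G062830 and Ebr06G016370, had 1 to 3 counts each over all libraries. The value of Ebr02G025250 rested on the 372 counts of a single library.

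**Figure D3:**
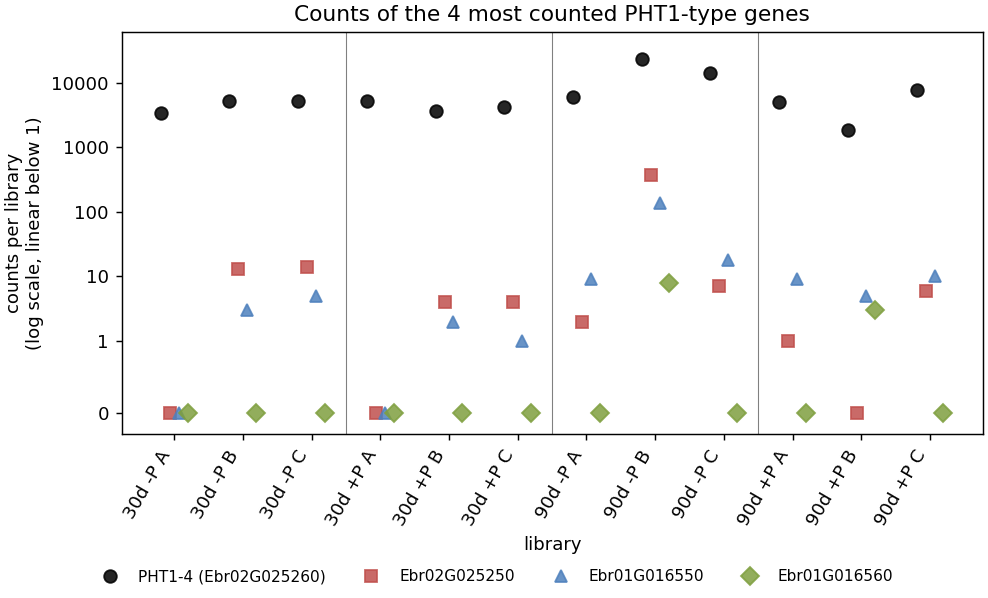
Counts (vertical axis, log scale that is linear below 1) of PHT1-4 and the next 3 PHT1-type genes by total count in each of the 12 libraries. PHT1-4 lies between 1829 and 23104 counts, and the others stay at or below 18 counts except in replicate B of 90d -P, where Ebr02G025250 reached 372 and Ebr01G016550 reached 138.

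Ebr02G025250 is also the nearest gene upstream of PHT1-4, on the same strand and 2508 bases before its start, so that the most and the second most counted members of the family are neighbours. The gap to the next genes was far wider. Upstream, the cytosolic fructose-bisphosphate aldolase gene Ebr02G025240, 177.0 kb away, had 5 counts in all 12 libraries, and the B3 domain gene Ebr02G025230 had none. Downstream, Ebr02G025270, named after the transcriptional coactivator ASC-1, lay 77.5 kb away and averaged 8.58 FPKM. Its log2 fold change at 90 d was 0.01 ± 0.29 (SE), with an adjusted p of 1 from edgeR. Ebr02G025280, without annotation, averaged 1.07 FPKM, and Ebr02G025290 had no read. None of these 6 neighbours, Ebr02G025250 at 1.35 FPKM included, had a mean level near the 214 FPKM of PHT1-4.

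Averaged over the 12 libraries, the other phosphate carriers tested were less abundant than PHT1-4, and edgeR called none of them between -P and +P. A list of 62 genes for other phosphate transport covered export, plastid, mitochondrial, vacuolar and glycerol-3-phosphate carriers, of which 38 had enough reads to be tested. At 90 d edgeR called 0 of them, 2 reached an unadjusted p under 0.05 with at least a doubling and none with a halving, beside 1.61% of all genes higher and 2.77% lower, and the median log2 fold change of the 38 was 0.28, beside -0.00 over all genes tested. The triose phosphate translocator Ebr03G013060, which exchanges plastid triose phosphates for phosphate, was the most abundant at 216, 72.6 and 185 FPKM in 90d -P and 197, 171 and 187 FPKM in 90d +P. It was lowest in the library where PHT1-4 was highest. The mitochondrial phosphate carrier Ebr02G036220 had 92.9, 105 and 86.9 FPKM in 90d -P and 84.4, 84.0 and 77.5 FPKM in 90d +P.

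The chloroplast carriers and the most abundant PHO1 exporter gene likewise missed the test. PHT2-1 (Ebr02G050350), a phosphate carrier of the chloroplast envelope, had log2 fold changes of 0.17 ± 0.17 (SE) at 90 d and 0.08 ± 0.17 for 90d -P against 30d -P. Chloroplast sodium-dependent phosphate transporter 1 (Ebr01G060280) lay between 62.5 and 97.4 FPKM over all libraries. PHO1 homolog 3 (Ebr03G045300), of the family that exports phosphate to the xylem, had 66.5, 64.0 and 87.2 FPKM in 90d -P and 72.6, 54.1 and 32.9 FPKM in 90d +P. These 2 groups overlapped. Of the 12 PHO1 genes tested, edgeR called 0 at 90 d, with 11 fitted higher in -P and 1 lower. Their median log2 fold change was 0.47. In 90d -P against 30d -P edgeR also called 0 of the 12, with 8 fitted higher and 4 lower and a median of 1.31. At an unadjusted p under 0.05 with a doubling or halving, 5 PHO1 genes were higher there and 1 lower. Over all 24307 genes tested these were 1453 and 2559.

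At 90 d, a vacuolar and a glycerol-3-phosphate carrier differed by a larger ratio between the -P and +P means than the carriers named above. Ebr02G027230, an SPX domain membrane protein of the vacuolar phosphate transporter family, had 9.16, 16.1 and 16.4 FPKM in 90d -P and 4.31, 2.12 and 5.51 FPKM in 90d +P. Here the groups did not overlap, which held in the same direction for 4.43% of all genes tested, and the adjusted p was 0.726 from edgeR. The glycerol-3-phosphate transporter Ebr05G055830 had 6.24, 102.6 and 18.6 FPKM in 90d -P and 18.6, 0.281 and 6.77 FPKM in 90d +P. Its highest and lowest libraries were those of PHT1-4. The glucose-6-phosphate translocator GPT1 (Ebr03G024750) was the only carrier of the list that edgeR called, and it fell in 90d -P against 30d -P by 1.39 ± 0.32 (SE) on the log2 scale, with an adjusted p of 0.0349. In that comparison edgeR called 3.95% of all genes as lower and 1.63% as higher. At an unadjusted p under 0.05 with a doubling or halving, 8 of the 38 carriers were higher there and 2 lower. Over all 24307 genes tested these were 1453 and 2559.

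Genes of families with members known from other plants to control PHT1 transporters formed a second list of 57, of which 37 were tested. Whether each listed gene does so was not tested. At 90 d edgeR called 0 of the 37, with 1 higher and 2 lower at an unadjusted p under 0.05 and a doubling or halving (1.61% and 2.77% of all genes), and their median log2 fold change was -0.04. The PHR1-like factor PHL3 (Ebr02G035230), of the family that switches on phosphate starvation genes, had 68.6, 71.7 and 90.0 FPKM in 90d -P and 90.5, 71.3 and 77.7 FPKM in 90d +P. SPX2 (Ebr06G027380), of the family that holds PHR factors back when phosphate is ample, had 45.4, 182 and 52.2 FPKM in 90d -P and 71.4, 26.8 and 35.1 FPKM in 90d +P. It thus shared its highest library with PHT1-4, and only that -P library lay above the +P leaves.

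Genes that act on PHT1 protein after it is made did not follow one direction. PHO2 (UBC24, Ebr03G015390), which in Arabidopsis marks phosphate transporters for breakdown, had 9.36, 19.4 and 14.8 FPKM in 90d -P and 18.2, 93.2 and 24.6 FPKM in 90d +P. Its highest library was the one in which PHT1-4 was lowest. The log2 fold change of PHO2 at 90 d was -1.62 ± 0.53 (SE), with an adjusted p of 0.832 from edgeR. The ubiquitin ligase gene Ebr01G042190, of the kind of NLA, which acts with PHO2, had a log2 fold change of -0.30 ± 0.42 (SE) at 90 d. The SEC12-like gene Ebr04G029340, of the family of PHF1 that lets PHT1 proteins leave the endoplasmic reticulum, lay between 18.7 and 33.2 FPKM. The gene named after PHF1 itself, Ebr01G056620, added after its values were seen, had 21.02, 42.4 and 25.2 FPKM in 90d -P and 26.6, 15.9 and 19.2 FPKM in 90d +P, so that the groups overlapped and its highest library was that of PHT1-4. Its log2 fold change in 90d -P against 30d -P was 1.01 ± 0.33 (SE), with an adjusted p of 0.0891 from edgeR. A casein kinase 2 beta subunit (Ebr01G075340), of the kinase that in rice retains PHT1 proteins there, lay between 53.8 and 66.8 FPKM. Cornichon homolog 4 (Ebr05G059060), of a family of cargo receptors that in rice carries PHT1 proteins, lay between 22.2 and 33.2 FPKM.

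A set of 3 transcription factor genes of this list rose in 90d -P against 30d -P, the comparison in which PHT1-4 missed the test. WRKY75 (Ebr03G069460), named after a positive regulator of phosphate starvation genes in Arabidopsis, had 3.49, 28.9 and 13.1 FPKM in 90d -P and 0.0760, 0.336 and 0.454 FPKM in 30d -P (log2 fold change 5.65 ± 1.20 (SE), adjusted p = 0.0299 from edgeR). The study's text gives WRKY75 as down-regulated in this comparison and does not name the copy. Here all 5 tested WRKY genes of the list were fitted higher in it. A WRKY6 gene (Ebr02G001810) rose by 3.26 ± 0.66 (SE) on the log2 scale and a PHL7 gene (Ebr06G058960) by 1.49 ± 0.33 (SE), with adjusted p of 0.0261 and 0.0329 from edgeR. The most abundant WRKY6 gene, Ebr01G015230, had a log2 fold change of 0.58 ± 0.43 (SE) in the same comparison and an adjusted p of 0.440 from edgeR. Ebr02G001810 and Ebr06G058960 were also higher at 90 d with phosphorus supplied. Ebr02G001810 averaged 10.7 FPKM in 90d -P, 10.3 in 90d +P, 1.10 in 30d -P and 2.56 in 30d +P. Ebr06G058960 averaged 44.1 FPKM in 90d -P and 43.6 in 90d +P. Its log2 fold change in 90d +P against 30d +P was 1.18 ± 0.33 (SE), with an adjusted p of 0.0705 from edgeR. Over both lists with PHT1 added, edgeR called 4 of 76 tested genes in 90d -P against 30d -P, the 3 factors and GPT1. That is 5.26% of the list, near the 5.58% of all genes that edgeR called in either direction. At an unadjusted p under 0.05 with a doubling or halving, 15 of the 76 were higher and 3 lower, beside 1453 and 2559 of all 24307 genes. In edgeR's fits none of the 76 was called after leaving out replicate A or B of 30d -P or replicate B or C of 90d -P. With these 6 libraries alone edgeR called none either. There DESeq2 called 19, beside 992 higher and 2228 lower of the 24788 genes it tested. Without replicate C of 30d -P there were 4 calls and without replicate A of 90d -P 5. In 90d +P against 30d +P, WRKY75 had a log2 fold change of 4.51 ± 1.13 (SE) with an adjusted p of 0.0557 from edgeR, and the difference between both comparisons, its interaction term, was 1.14 ± 1.47 (SE) with an adjusted p of 1.00 from edgeR.

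**Figure D4:**
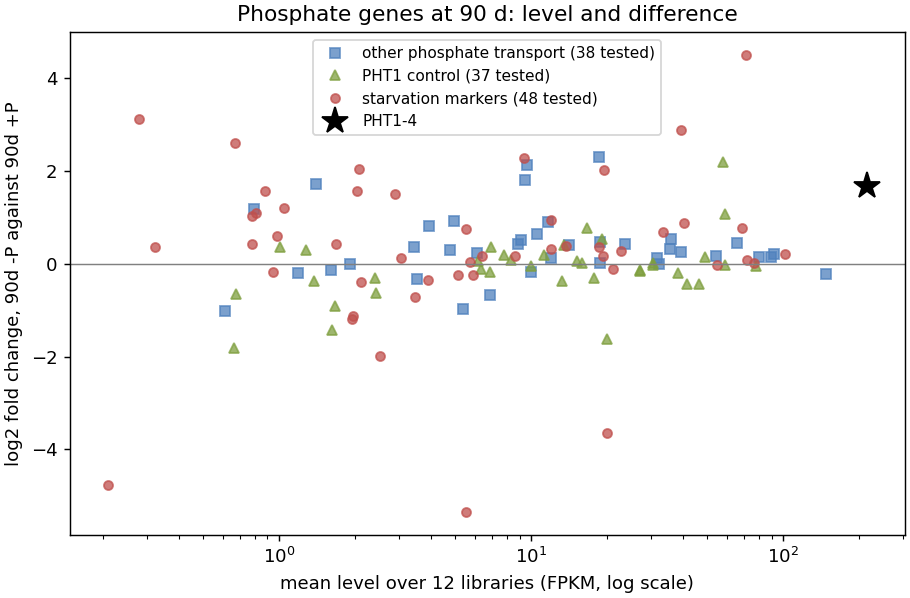
Mean level over 12 libraries in FPKM (horizontal axis, log scale) and log2 fold change of 90d -P against 90d +P (vertical axis) of the tested genes of the 3 lists and of PHT1-4. PHT1-4, drawn as a star at 214 FPKM and 1.69, is further to the right than any gene of the lists, and edgeR called none of the points.

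The summed level of genes of the general phosphate starvation response was highest in the library where PHT1-4 was highest, though most of these genes peaked elsewhere. The list held 118 genes for purple acid phosphatases, glycerophosphodiester phosphodiesterases, ribonucleases, phospholipase D zeta and sulfolipid synthesis, 48 of them tested. Their sum was 629, 1848 and 730 FPKM in 90d -P, and 668, 657 and 686 FPKM in 90d +P. At 30 d it was 677, 660 and 829 FPKM in -P and 836, 784 and 735 FPKM in +P. Only replicate B of 90d -P thus stood above the range of the others, and 14 of the 48 genes (29.2%) had their highest level there, as did 9.50% of all genes tested. Of the 48, 8 (16.7%) were highest in replicate B of 90d -P and lowest in replicate B of 90d +P, as PHT1-4 was, beside 0.712% of all genes tested.

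The phosphodiesterase GDPD1 (Ebr03G070120), which breaks down deacylated phospholipids, had its highest level in that library. It had 9.41, 553 and 24.6 FPKM in 90d -P and 18.4, 2.06 and 5.54 FPKM in 90d +P. Ribonuclease 3 (Ebr05G058180), named after an Arabidopsis enzyme that cuts RNA, had 14.6, 127 and 11.6 FPKM in 90d -P, against 34.0 and 3.85 FPKM in replicates A and C of 90d +P and no read in replicate B. In 90d -P leaves PHT1-4 differed from both in replicate C: it had 432 FPKM there, above every other library but 1, while GDPD1 and ribonuclease 3 lay within the range of the other libraries. The sulfolipid enzyme SQD1 (Ebr06G021540) had 71.8, 131 and 88.6 FPKM in 90d -P and 65.7, 54.5 and 50.7 FPKM in 90d +P, without overlap but with an adjusted p of 0.832 from edgeR.

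Other starvation genes did not share this order. The purple acid phosphatase Ebr06G047170, the most abundant of its kind, had 32.3, 19.7 and 156 FPKM in 90d -P and 77.9, 24.1 and 77.8 FPKM in 90d +P, with replicate B lowest in both groups. Phospholipase D zeta 1 (Ebr01G007410) lay between 6.61 and 12.5 FPKM over all libraries. edgeR called 0 of the 48 genes at 90 d, with 1 higher and 3 lower at an unadjusted p under 0.05 and a doubling or halving, beside 1.61% and 2.77% of all genes. Their median log2 fold change was 0.35. The sulfolipid transferase SQD2 (Ebr03G035750) was the 1 gene called in any comparison, and it fell in 90d +P against 30d +P by 1.21 on the log2 scale (adjusted p = 0.0490 from edgeR), where edgeR called 2.18% of all genes as lower.

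**Figure D5:**
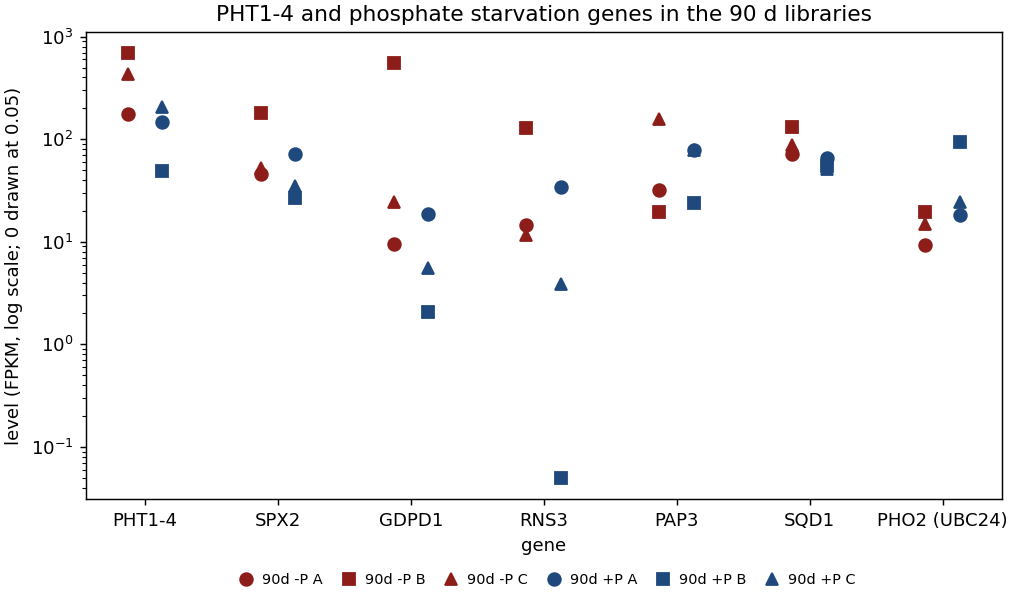
Level in FPKM (vertical axis, log scale) of PHT1-4, SPX2, 4 starvation genes and PHO2 in the 6 libraries of 90 d, with 90d -P in red left of 90d +P in blue and the replicate given by the symbol; a value of 0 is drawn at 0.05. Replicate B of 90d -P is the highest of the 6 for PHT1-4 at 685 FPKM, SPX2 at 182 FPKM, GDPD1 at 553 FPKM, ribonuclease 3 at 127 FPKM and SQD1 at 131 FPKM.

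Over the 12 libraries the genes most like PHT1-4 were picked by Pearson's r of log2 CPM among 17578 annotated genes with a mean of at least 1 CPM. These values share the same libraries and scaling, and are given as a description without a test. The highest r was 0.91, for the MAP kinase kinase gene Ebr06G038540 (named after MKK9 of Arabidopsis), with Spearman's rho 0.48. It had 24.1, 57.1 and 59.1 FPKM in 90d -P and 26.8, 13.7 and 22.4 FPKM in 90d +P. It was thus high in replicates B and C of 90d -P and low in replicate B of 90d +P, as PHT1-4 was.

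A pair of neighbouring cytochrome P450 genes of the 81 family came next, Ebr04G071100 (r = 0.90, rho = 0.83) and Ebr04G071110 (r = 0.88, rho = 0.76). They were followed by the chloroplast metalloprotease gene Ebr06G031190 (r = 0.88), a rhodanese-like gene, Ebr03G051260 (r = 0.87), the PEP carboxylase kinase gene Ebr02G025060 (r = 0.86) and Ebr02G065620, named after the poly(A)-binding protein interactor CID5 (r = 0.86, rho = 0.92). The last 3 of the 10 were the glycerol-3-phosphate transporter Ebr05G055830 (r = 0.85, rho = 0.57), the homoserine kinase gene Ebr04G055400 (r = 0.84) and the receptor kinase gene Ebr04G063500 (r = 0.84). Of these 10, only the glycerol-3-phosphate transporter belonged to a phosphate list.

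At the other end were an AMP deaminase gene, Ebr03G061380 (r = -0.91, rho = -0.59), the gene Ebr01G033860 without annotation (r = -0.89, rho = -0.70) and the RING finger gene Ebr05G020780, named after ATL65 (r = -0.88, rho = -0.69). Ebr01G033860 was lowest in replicate B of 90d -P at 6.88 FPKM and highest in replicate B of 90d +P at 32.2 FPKM, so that its highest and lowest libraries were the lowest and highest of PHT1-4. In all, 26 genes had an r above 0.8, 0.148% of those compared, and the median r was 0.00.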

How the data were processed

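The deposited counts are whole reads per gene, not normalized. Per the labels and the methods, the authors aligned reads with HISAT2 2.0.5 and added transcripts with StringTie 1.3.3b, and featureCounts 1.5.0-p3 is named among the tools; genome build and handling of strand and shared reads are not given in the sources used here. The authors' FPKM values are these counts per kilobase of gene, over a library size proportional to DESeq2-type size factors, checked on the values (implied size 88.7% to 117% of the total count).

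Counts were fitted with edgeR 4.0.16 in R 4.3.3: TMM normalization, filterByExpr on the 4 groups (24307 genes tested), a robust quasi-likelihood fit of all 12 libraries (8 residual degrees of freedom), and p-values adjusted after Benjamini and Hochberg. The study's methods used DESeq2 on pairs of groups, run here as an alternative. A gene was called when its adjusted p was at most 0.05 and its log2 fold change at least 1 in size. The SE was taken as the size of the log2 fold change divided by the root of the F statistic, and the 95% intervals use a t distribution. CPM are counts scaled to the TMM library size. Replicates are described as biological; their chi-square per gene was 26.6 to 144, so none was a repeat of another.

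Alternatives were RLE normalization, no filter, CPM of at least 1 in 3 libraries, DESeq2 1.42.0 on 12 or 6 libraries, limma 3.58.1 (voom with quality weights, and log2(FPKM + 1) or log2(FPKM + 0.1)), a replicate block, 2-group fits, and leaving out each library. The test scripts were tested on simulated data. Python 3.11.15, numpy 2.4.6, pandas 2.3.3 and scipy 1.17.1 gave the descriptions.

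Gene lists came from Swiss-Prot names in the annotation. The named genes were all PHT1 genes, the most abundant of each kind in a list, called list genes (up to 3 per list and comparison), the 10 highest and 3 lowest r, and 3 neighbours each side. The gene and the lists were chosen with earlier results of these data known. Phloem, meristem and flower lists matched 0 genes. The miRNA and RT-qPCR data were not analysed here.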

Additional observations from a re-analysis of the deposited data

How the results depend on the processing

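Of 108 alternative fits of PHT1-4, 100 kept the direction and the side of the threshold. DESeq2 passed the threshold for 90d -P against 30d -P, with log2 fold changes of 1.55 on all 12 libraries and 1.55 on the 6 compared. For 30d -P against 30d +P, near 0 throughout, the sign turned with the replicate block, to -0.026, and in fits without 1 library, which ranged from -0.066 to 0.15. Leaving out 1 library gave 1.19 to 2.14 for 90d -P against 90d +P, 1.05 to 1.92 for 90d -P against 30d -P, -0.58 to 0.28 for 90d +P against 30d +P, and 1.17 to 2.13 for the interaction. In no such fit was PHT1-4 called, the lowest adjusted p being 0.0573 from edgeR, for 90d -P against 30d -P without replicate B of 90d +P.

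The count of called transport and control genes (0 at 30 d, 0 at 90 d, 4 for 90d -P against 30d -P, 0 for 90d +P against 30d +P) depended on the test. For 90d -P against 90d +P, DESeq2 on all 12 libraries called 2, beside 61 higher and 187 lower of 26160 genes tested. For 90d -P against 30d -P it called 18, beside 1077 and 2155 of 25465. For 90d +P against 30d +P it called 10, beside 778 and 1599 of 24762. On 6 libraries it called 2, 19 and 8, beside 49 and 135, 992 and 2228, and 684 and 1517 higher and lower genes. Voom called 11 and 8 in the last 2 comparisons, beside 967 and 1439, and 790 and 1271 higher and lower genes of 24307. For 90d -P against 30d -P the replicate block left 0, as did edgeR on 6 libraries, and leaving out a library gave 0 to 5. For 90d +P against 30d +P leaving out a library gave 0 to 3. The sources used here do not say that the letters pair the libraries. The deviations of same-lettered libraries from their group means correlated at -0.23 to 0.21, which cannot exclude a shared effect of a letter. With the block, edgeR called 42 higher and 79 lower genes in all for 90d -P against 30d -P, against 396 and 960 without it. With DESeq2 on all 12 libraries these were 1077 and 2155, and for 90d -P against 90d +P 61 and 187, against 0 and 0 in edgeR. The causes were not tested. With 3 libraries a group and a spread of 59% (CV) at 90 d, differences under about the 95% intervals given cannot be shown.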
